A study of Arabidopsis thaliana with 8 samples.

Results

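Ribosome occupancy per mRNA after light is the number of ribosome-protected reads in a coding sequence (CDS) set against the steady-state mRNA reads of the same coding sequence, in Arabidopsis seedlings that had received 4 h of white light. It was described for the nuclear loci with at least 50 mRNA reads in the CDS in each of the 2 light mRNA libraries, which were 16357 of 27205 nuclear loci and of 27415 loci in all. All of them also passed the filter on low counts used for the tests.

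The seedlings were of the Col-0 accession, were grown for 4 days in darkness on half-strength Murashige-Skoog medium and were then collected either directly (dark) or after 4 h of white light. Both kinds of library were made from each condition, which gave 4 groups of 2 libraries, called repeat 1 and repeat 2 here. No mutant, transgene or inhibitor is named in the labels, every group shares the growth in darkness, and the seedlings were extracted whole, so the values average over all cell types. The labels do not say that the repeats were separate cultures, so the p-values measure the spread between these libraries, which may be technical. The light mRNA libraries held 30997341 and 37245819 CDS reads. The light ribosome-protected libraries held 4617343 and 40972194, so the protected counts of repeat 1 are the least precise values here. Nuclear photosystem genes had a median light mRNA level of 1160 CPM (reads scaled to library size) per kb of CDS, against 17.1 over all members. In whole seedlings, fewer cells of a type and less RNA per cell cannot be told apart.

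In ribosome profiling, RNase I removes the mRNA that ribosomes do not cover, and the protected fragments are sequenced. An mRNA that recruits ribosomes often yields many protected fragments per copy, while an mRNA with upstream open reading frames in its 5′ leader, or one held out of polysomes, yields few. Scanning ribosomes usually begin at the first start codon in a favourable sequence context, in which the third base before the start codon and the base right after it count most. Light is known to raise translation in dark-grown seedlings.

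The start codons of loci at both ends of the range are shown because they mark the extremes of the scale. In each sequence the 9 bases before the start codon and the 9 bases after it are in lower case, the start codon itself is in capitals, and all are read 5′ to 3′ from RefSeq's TAIR10.1 assembly. Among called loci with at least the median mRNA level, the first 4 had the highest occupancy and the last 4 the lowest of those with a matched sequence.
AT3G53980: agaaacaaaATGgcagcttcc
DIR1: gataataatATGgcgagcaag
GRXC2: cttctttatATGgattcgatt
AT3G18280: agaagaaacATGgtgatgatc
SCAMP4: tctcaaagaATGgcacgacac
AT1G53780: ttaataaacATGtcagttttc
AT4G11211: aatacaacaATGttcactccc
AT5G03545: attatcaatATGgtgatgatg
The first base of the start codon lies at chr3:19988203 (minus strand) for AT3G53980, at chr5:19646625 (minus) for DIR1, at chr5:16148900 (minus) for GRXC2 and at chr3:6267102 (plus) for AT3G18280. It lies at chr1:887778 (minus) for SCAMP4, chr1:20077713 (minus) for AT1G53780, chr4:6836274 (plus) for AT4G11211 and chr5:895047 (plus) for AT5G03545.

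Occupancy is given as the log2 ratio of protected to mRNA reads after scaling, so 0 stands for the typical gene and the length of the CDS cancels. Over the members the median was 0.02, the 5th percentile -1.54 and the 95th percentile 0.88, which spans 5.34-fold. The distribution had its long tail below. In repeat 1 the 5th and 95th percentiles were -1.65 and 0.87, and in repeat 2 they were -1.50 and 0.97. Across genes, which are not independent replicates, the repeats correlated with Pearson's r of 0.858 and Spearman's rho of 0.819, and the median absolute difference between them was 0.26. In both repeats 1341 members lay below -1, and 181 lay above 1.

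Ribosome-protected reads were tested against mRNA reads in edgeR's quasi-likelihood model over all 8 libraries, with Benjamini-Hochberg adjustment over 19823 genes and a threshold of 0.05. It called 15 members higher and 447 lower. Over all tested genes 0.101% were called higher and 2.36% lower, and the members' own shares were 0.0917% and 2.73%. Without adjustment 3366 members had p under 0.05. With the repeat number as a block, since same-numbered libraries deviated together, 2662 members were higher and 3272 lower, against 14.2% and 18.4% of all tested genes. All 15 and all 447 were among these. DESeq2 called 449 and 1131, against 2.41% and 6.13% of all tested genes.

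The number called without the block fell when libraries were left out. Leaving out repeat 1 or repeat 2 of the light mRNA, or of the light ribosome-protected mRNA, left 0 members called in either direction, with 1 library standing for its group and assumed to vary like the others. Leaving out repeat 1 of the dark mRNA left 2 called lower and repeat 2 left 0. Leaving out repeat 1 or repeat 2 of the dark ribosome-protected mRNA left 248 or 250 called lower, and none of the dark libraries left any called higher. With fewer libraries the test has fewer degrees of freedom, and the values moved by amounts that differed between loci. Over the 8 libraries left out in turn SPA3 ran from -1.89 to -1.81 and DIR1 from 1.35 to 1.71, both called loci. Other well-counted loci, not called, moved far more, such as EBP from -4.43 to -0.65 and ICL from -1.51 to 1.31. What lowered the number called was not tested.

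**Figure D1:**
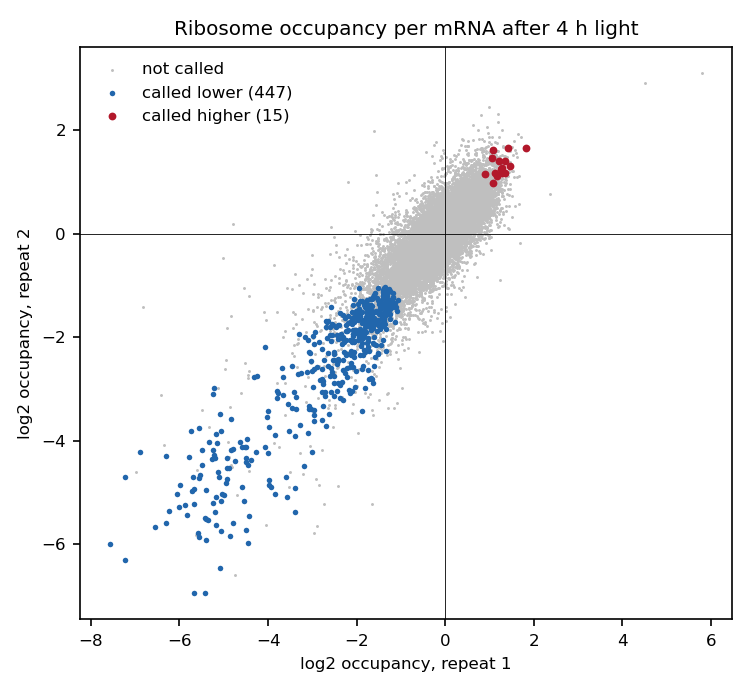
Log2 occupancy after 4 h of light in repeat 1 (horizontal) and repeat 2 (vertical) for 16357 nuclear loci, 1 point per locus. The 447 loci called lower extend far below 0 in both repeats, while the 15 called higher sit near the upper edge of the main cloud.

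The loci called higher encoded small proteins. Their CDS had a median length of 345 nt and none was longer than 564 nt, against a median of 1212 nt over all members. Of the 10 with the highest fitted occupancy at or above the median mRNA level, 4 (AT3G53980, DIR1, AT3G18280 and AT4G33550) carry the annotation of the bifunctional inhibitor, lipid-transfer and seed storage family, small cysteine-rich proteins that are mostly secreted.

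AT3G53980 had 4.92 and 7.67 CPM of mRNA reads in repeats 1 and 2 and 17.7 and 24.4 CPM of protected reads. Both protected values were above both mRNA values, and its log2 occupancy was 1.75 ± 0.32 (SE, 2 libraries per group, edgeR adjusted p = 0.048). DIR1, a lipid-transfer protein known for its part in systemic acquired resistance, had 180.1 and 195 CPM of mRNA and 479.7 and 615 CPM of protected reads. Its occupancy was 1.55 ± 0.25 (edgeR adjusted p = 0.038), and the groups did not overlap. It overlaps the locus AT5G48480, and without knowledge of strand in the counting the reads of overlapping genes cannot be told apart.

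GRXC2, a cytosolic glutaredoxin, had 17.4 and 19.9 CPM of mRNA and 48.4 and 49.8 CPM of protected reads. The occupancy was 1.39 ± 0.19 (edgeR adjusted p = 0.031). Its leader held 13.3% of its protected reads and contains 2 upstream ATG triplets, so a high CDS occupancy occurred beside protected reads in the leader. LCR69, a small cysteine-rich protein of the defensin type, stood at 1.27, the membrane protein DMP2 at 1.37, the cystatin CYS2, an inhibitor of cysteine proteases, at 1.26 and the dirigent protein DIR6 at 1.22. AT3G18280, AT4G33550 and AT5G24570, the last of them of no known function in the annotation, stood at 1.38, 1.27 and 1.27. In all 10 loci both protected values were above both mRNA values. They were picked as the highest called loci with 1 sign in both repeats, so this follows largely from the choice.

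The loci called lower had a median log2 occupancy of -2.12 and a median CDS of 1662 nt. Their 5′ leaders were longer, at a median of 179 nt against 108 nt over all members. Of those with a leader sequence, 258 of 338 (76.3%) had an upstream ATG, against 5412 of 14635 (37.0%) of all members with one. The median share of a locus's protected reads that fell in the leader was 6.87% for those called lower. It was 2.18% for the loci called higher and 1.07% over all members. Of the loci called lower 149 (33.3%) overlap another annotated gene, close to the 32.4% of all members.

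At the foot of the scale, several loci had their protected reads in the leader. AT3G24070, annotated as a zinc knuckle protein, had 887 and 811 mRNA reads in its CDS and 4 and 11 protected reads there, while its leader of 458 nt, with 10 ATG triplets, held 53 and 234 protected reads. Its occupancy was -5.65 ± 0.90 (edgeR adjusted p = 0.036) and 95.03% of its protected reads lay in the leader. AT4G34881, with 2116 and 1431 mRNA reads, had 9 and 47 protected reads in its CDS of 180 nt and 16 and 155 in its leader. Its occupancy was -4.94 ± 0.71 (edgeR adjusted p = 0.032), and it overlaps AT4G34890. AT4G11211, with the shortest CDS of any member at 66 nt, had 367 and 649 mRNA reads, 0 and 4 protected CDS reads, and 4 and 82 protected leader reads.

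Over all members, 36 loci had over 50% of their protected reads in the leader with at least 20 such reads. Their median occupancy was -3.75, their median leader length 457 nt, and 22 of them were called lower. They did not all lie low, since their highest occupancy was 3.525, the fitted value of AT2G35750. All 31 of them with a leader sequence had an ATG there. Since the protected CDS reads enter both the share and the occupancy, the 2 values are not independent.

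Other loci at the foot had few protected reads anywhere. AT1G53780, annotated as an ATPase of the proteasome's regulatory particle, had 51.7 and 49.5 CPM of mRNA against 0.945 and 0.326 CPM of protected reads, an occupancy of -6.76 ± 0.84 (edgeR adjusted p = 0.030), with a leader of 35 nt and no ATG in it. HSD2, a hydroxysteroid dehydrogenase, had 24.8 and 20.9 CPM of mRNA against 0.236 and 0.356 CPM of protected reads (-6.09 ± 0.91, edgeR adjusted p = 0.035). SCAMP4, a secretory carrier membrane protein, had 462 and 767 mRNA reads against 0 and 7 protected reads, and it overlaps AT1G03545. AT2G24592 had 112 and 111 mRNA reads against 0 and 1. It is annotated as non-coding in TAIR10.1, as are, with pseudogenes, 3 members in all, whose occupancies ran from -6.66 to -2.27.

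In 13 members both light libraries held 0 protected CDS reads, and 10 of these were called lower. For these the fitted value is no bound. AT5G03545, a locus induced by phosphate starvation, had 101 and 195 mRNA reads and was at least 51.0-fold lower, taking 3 protected reads over the group as the floor. Its leader, with 7 ATG triplets, held 0 and 6 protected reads. Not among the 13 but close, AT1G29465 had 133 and 111 mRNA reads against 0 and 2 protected CDS reads. Its leader, with 8 ATG triplets, held 7 and 52 protected reads, and it overlaps other annotated loci. AT1G53785 had 108 and 152 mRNA reads against 0 and 3, with 1 and 5 protected reads in its leader.

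**Figure D2:**
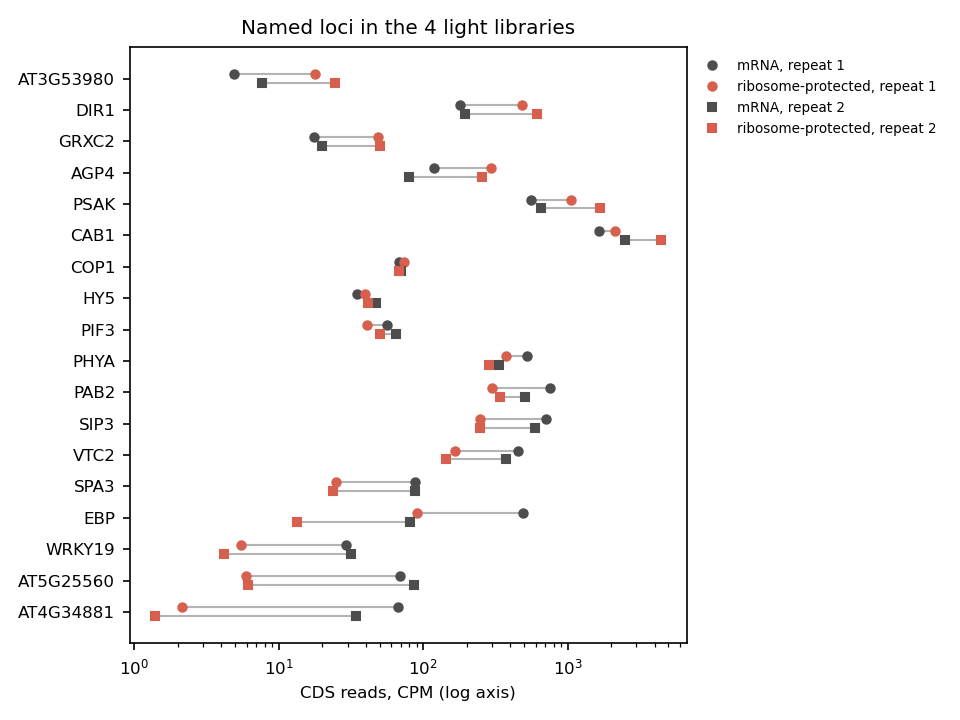
CDS reads of 18 loci in the 4 light libraries, in CPM on a log axis; grey marks are mRNA, red marks ribosome-protected reads, circles repeat 1 and squares repeat 2. Red lies to the right of grey for the upper loci such as DIR1 (479.7 and 615 against 180.1 and 195 CPM) and far to the left for AT4G34881 (2.13 and 1.39 against 67.1 and 34.1 CPM).

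The lists that follow were counted against the members as a whole, of which 15 were higher and 447 lower, or 2662 and 3272 with the block. A locus called in a list without being its extreme was named after its value was seen. Lipid transfer and 2S albumin proteins had the highest median, 1.16 in the fit, 1.03 in repeat 1 and 1.14 in repeat 2. Of 35 measured, 4 were higher and 0 lower, or 28 and 0 with the block, and all 35 lay above 0 (30 without repeat 2 of the light protected reads). Against the median of their own quintile of CDS length, lipid transfer proteins had a median of 0.67 and arabinogalactan proteins one of 0.72. Arabinogalactan proteins, heavily glycosylated proteins of the cell surface, had a median of 0.96, with 0 called of 33 and 22 higher with the block. Their extremes were AGP4 at 1.47 (119 and 80.1 CPM of mRNA, 295 and 256 CPM of protected reads, edgeR adjusted p = 0.085) and AGP22 at -1.30. Aquaporins, the water channels of the membrane, had a median of 0.68, and expansins and XTH enzymes, which loosen and rebuild the wall, one of 0.71. With the block 20 of 28 and 20 of 38 were higher, and 1 of each was lower. Among the aquaporins NIP5;1, a boron channel whose leader holds upstream ATGs, lay lowest at -0.98 (edgeR adjusted p = 0.22, with the block 0.019).

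Cytosolic ribosomal proteins had a median of 0.78 (0.61 in repeat 1 and 0.90 in repeat 2), with 0 of 92 called and 63 higher and 1 lower with the block. The 14 elongation factor genes had a median of 0.51, with 0 called and 5 higher with the block. They ran from eEF-1Bb1 at 0.04 (-0.36 in repeat 1 and 0.38 in repeat 2) to LOS1, the elongation factor that moves the ribosome along, at 0.83. All 14 were above 0 in the fit, 13 in each repeat and 10 without repeat 2 of the light protected reads. The initiation factors had a median of 0.30, with 1 of 37 lower, or 9 higher and 4 lower with the block. The call was AT1G21160, annotated in the eIF2 family, at -3.07 ± 0.56 (1419 and 1312 mRNA reads, 28 and 103 protected reads, edgeR adjusted p = 0.049), which overlaps AT1G21170. AT1G76820, also annotated in the eIF2 family, had a value of -4.60 with 443 and 230 mRNA reads against 1 and 15 protected reads (edgeR adjusted p = 0.065). EIF4E, the cap-binding protein, stood at 0.92. The 3 measured poly(A)-binding proteins ran from PAB2 at -0.99 (761 and 506 CPM of mRNA, 298 and 339 CPM of protected reads, edgeR adjusted p = 0.19, with the block 0.015) to PAB8 at 0.24. Of 32 loci annotated as proteasome subunits or maturation factors, 31 lay above 0 (28 and 30 in the repeats) and the exception in the fit was AT1G62920, a maturation factor by its annotation. It had 53 and 63 mRNA reads and 0 protected reads in both repeats, at least 19.98-fold lower by the floor of 3 reads over the group (edgeR adjusted p = 0.044).

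Histones, which pack DNA, had a median of 0.84, with 0 of 35 called and 30 higher with the block. All 35 lay above 0 in the fit, 33 did in repeat 1 and 30 with the 3 regions summed. The lowest, HTA9, was at 0.16 (-0.27 in repeat 1 and 0.69 in repeat 2). Histones and several lists above are gene families, and where copies share sequence the counting can divide reads between members. AT1G09200, the highest histone, shares 4.43% of the 28-base windows of its CDS with other loci, and HTA9 shares 0.0%.

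Photosynthesis genes lay mostly above 0. Nuclear photosystem and electron transport subunits had a median of 0.87, from FNR1, which reduces NADP, at 0.33 to PSAK, a photosystem I subunit, at 1.17. PSAK had 559 and 657 CPM of mRNA against 1048 and 1680.4 CPM of protected reads (edgeR adjusted p = 0.36, with the block 0.021). Of the 32, 0 were called and 22 were higher with the block, and all 32 lay above 0 in the fit, in both repeats and under each alternative run other than those with the 4 light libraries alone, which were not counted. Light-harvesting proteins had a median of 0.66 and Calvin cycle enzymes one of 0.61, each with 0 of 20 called and 9 and 5 higher with the block. All 20 of each lay above 0 in the fit, but 18 and 15 did without repeat 2 of the light protected reads, and of the Calvin cycle list 19 did in repeat 1. CAB1, also known as LHCB1.3, had 1644 and 2491 CPM of mRNA against 2134 and 4458 CPM of protected reads, an occupancy of 0.67 ± 0.95. It shares 53.1% of its 28-base windows with other loci, so its reads may be split among copies. RBCS1A, a Rubisco small subunit, stood at 0.88 ± 1.00.

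Chlorophyll synthesis had a median of 0.51, with 24 of 25 above 0 (18 without repeat 2 of the light protected reads). Its highest member was GUN5, the large subunit of magnesium chelatase, at 1.15 ± 0.49 (1641 and 1821 CPM of mRNA, 2802 and 4903 CPM of protected reads, edgeR adjusted p = 0.28, with the block 0.011), in spite of a CDS of 4146 nt. HEMA1 and HEMA2, which make the glutamyl-tRNA reductase that feeds the pathway, stood at 0.27 and -0.21. The protochlorophyllide reductases PORA and PORB, which need light for their catalysis, stood at 1.03 ± 1.18 and 0.87 ± 1.07, with neither called in either fit.

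Photoreceptors and light signalling factors lay below the typical gene. Their median was -0.38 (-0.35 in repeat 1 and -0.36 in repeat 2), and 7 of 32 lay above 0. Against the median of their own quintile of CDS length, the list had a median of -0.18. Of the 32, 1 (3.12%, near the 2.73% of all members) was called lower, or 9 lower and 1 higher with the block. The call was SPA3, a partner of the COP1 ubiquitin ligase, with 87.2 and 87.9 CPM of mRNA and 25.04 and 23.62 CPM of protected reads. Its occupancy was -1.85 ± 0.30 (edgeR adjusted p = 0.037), a 3.60-fold lower value, with 11.99% of its protected reads in a leader that holds 6 ATG triplets. COP1 itself had 68.4 and 69.7 CPM of mRNA and 74.2 and 68.3 CPM of protected reads, an occupancy of 0.04 ± 0.20. HY5, the bZIP factor that drives greening, stood at -0.02 ± 0.23, PIF3, a bHLH factor degraded in light, at -0.41 ± 0.31 and PHYA, the far-red photoreceptor, at -0.37 ± 0.43. None of these 4 was called with or without the block. STH, a B-box factor, was highest at 0.55.

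Among families of regulators, the share called lower is set beside the 2.73% of all members. Pentatricopeptide repeat proteins, which bind and edit organelle RNA, had the lowest median of the larger lists, -0.78 (-0.81 in repeat 1 and -0.72 in repeat 2). Of 196 measured, 17 (8.67%) were lower and 0 higher, or 92 and 3 with the block. They had a median mRNA level of 3.39 CPM per kb, well under the 17.1 of all members, and a median CDS of 1866 nt. Against the median of their own quintile of CDS length they still lay lower by a median log2 value of -0.61. F-box proteins, the substrate receptors of ubiquitin ligases, had a median of -0.64, with 10 of 132 (7.58%) lower and 66 with the block. RING finger proteins had a median of -0.32, with 9 of 287 (3.14%, near that of all members) lower and 97 with the block. The lowest of them, AT5G25560, had 69.1 and 86.8 CPM of mRNA and only 5.91 and 6.10 CPM of protected reads, an occupancy of -3.69 ± 0.33 (edgeR adjusted p = 0.028), and it overlaps AT5G25570.

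Among transcription factors the medians were -0.41 for WRKY (1 lower of 34, 2.94%, near that of all members), -0.35 for MYB (7 of 52, 13.5%), -0.18 for AP2 and ERF (0 of 11) and -0.08 for bHLH factors (5 of 76). The 5 bHLH loci were AT1G10610 (-5.63), the locus AT2G31280 (-3.93), FBH2 (-1.52), BIM1 (-1.36), which takes part in brassinosteroid responses, and AT1G01260 (-1.20). The 7 MYB loci included MYB33 (-2.50), MYB65 (-2.06) and MYB101 (-2.05), whose mRNAs are known targets of the microRNA miR159, with 9 and 78, 4 and 63, and 3 and 20 protected reads. The others were MYB48 (-3.30), MYB59 (-2.90), MYB4R1 (-2.69) and AT3G27340 (-2.54). WRKY19, a locus of 5688 nt annotated as a protein kinase, stood at -2.69 ± 0.31 (edgeR adjusted p = 0.030). EBP, an ethylene-response factor, shows how the repeats pair. Its mRNA was 494 and 80.4 CPM and its protected reads 90.7 and 13.3 CPM, so the groups overlap, but the occupancy was -2.44 in repeat 1 and -2.59 in repeat 2. It was not called without the block (edgeR adjusted p = 0.44) and was with it (4.13e-04). MYB28, a regulator of glucosinolate synthesis, stood at -3.32 with 69 and 349 mRNA reads against 0 and 25 protected reads (edgeR adjusted p = 0.21, with the block 0.0031). Leucine-rich repeat kinases had a median of -0.08, which was -0.25 in repeat 1 and 0.09 in repeat 2, with 4 of 114 lower.

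Other lists had medians above 0 in the fit. They were 0.62 for seed oil body and storage proteins (0 of 19 called), 0.52 for heat shock proteins, 0.47 for vacuolar ATPase subunits (0 of 13), 0.35 for plastid ribosomal proteins (0 of 11), 0.32 for tubulins (0 of 16) and 0.26 for Aux/IAA and SAUR proteins, whose median was -0.02 in repeat 1 and 0.31 in repeat 2. Of 62 heat shock proteins 1 was lower, AT5G02480 of the HSP20 type, at -2.16 ± 0.27 with 5970 and 8972 mRNA reads against 160 and 1771 protected reads (edgeR adjusted p = 0.030). Of 49 Aux/IAA and SAUR proteins 1 was lower, the auxin repressor IAA8, at -1.55 ± 0.27 with 3826 and 6967 mRNA reads against 196 and 1745 protected reads (edgeR adjusted p = 0.044). The tubulins ran from TUA2 at -0.84 to TUB1 at 1.18. Against their own quintile of CDS length, plastid ribosomal proteins had a median of -0.14 and Aux/IAA and SAUR proteins one of -0.16. The other lists of this paragraph stayed above 0 by that measure. By the same measure leucine-rich repeat kinases had a median of 0.25, histones one of 0.35 and cytosolic ribosomal proteins one of 0.31.

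**Figure D3:**
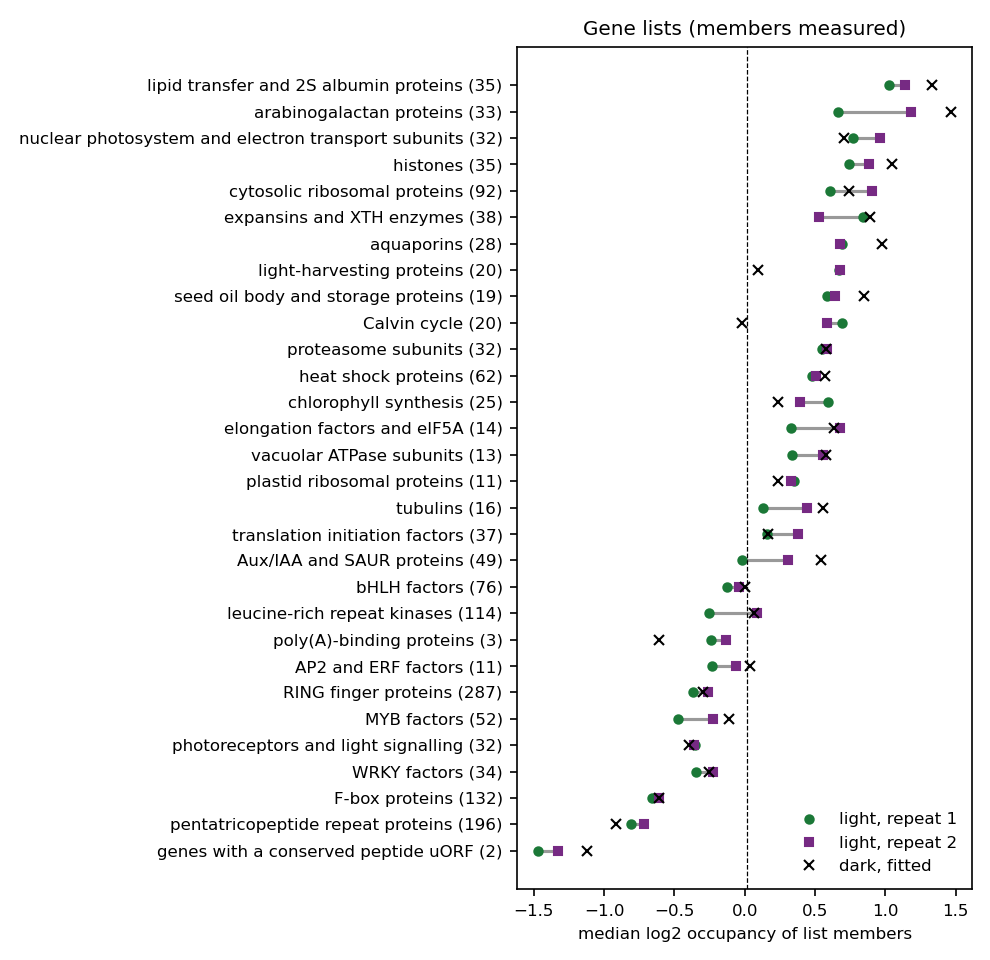
Median log2 occupancy of the members of 30 gene lists, with the number measured in parentheses; circles are repeat 1 and squares repeat 2 of the light libraries, crosses the fitted dark value, and the dashed line the median of all members. Lipid transfer proteins lie at the top (1.16) and F-box and pentatricopeptide repeat proteins near the foot (-0.64 and -0.78), and the crosses of the light-harvesting and Calvin cycle lists stand well to the left of their light values.

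A group of plant genes carries a conserved peptide in an upstream open reading frame that represses the main frame. Of the 19 such loci listed here only VTC2 and SIP3 met the read minimum. The bHLH locus AT2G31280 (-3.93, called lower), whose symbol in the annotation is CPUORF7, was not on that list. VTC2, which makes the committed intermediate of ascorbate synthesis, had 454 and 374 CPM of mRNA and 167 and 143 CPM of protected reads. Its occupancy was -1.42 ± 0.27 (edgeR adjusted p = 0.054, with the block 0.0011) and its leader held 26.2% of its protected reads. SIP3, a protein kinase, had 704 and 598 CPM of mRNA and 249 and 249 CPM of protected reads, an occupancy of -1.39 ± 0.32 (edgeR adjusted p = 0.078, with the block 0.0023). The other 17, among them SAC51, SAMDC (SAMDC1) and GBF6 (bZIP11), were listed at 0 CDS reads in all 8 libraries. Neither their expression nor their occupancy can be read from these counts.

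Several properties of the loci moved with occupancy across genes. The correlations are descriptions over loci that share the same libraries. Members were chosen by a minimum of mRNA reads, so mRNA level, and through it CDS length, is bound up with the choice. Spearman's rho between CDS length and fitted occupancy was -0.41 (-0.39 in repeat 1 and -0.38 in repeat 2). The shortest quintile, with a median CDS of 495 nt, had a median occupancy of 0.49, and the longest, at 2534 nt, one of -0.36. All 15 loci called higher were in the shortest quintile, and 179 of the 447 called lower were in the longest. Within quintiles of mRNA level the rho between CDS length and occupancy ran from -0.24 to -0.43. Light mRNA level per kb had a rho of 0.33 with occupancy, though the mRNA reads enter both values with opposite sign, and the GC content of the CDS one of 0.27 (0.24 and 0.27 in the repeats). The length of the 3′ trailer had a rho of 0.01.

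The 5′ leader moved with occupancy too. Its length had a rho of -0.27, and the quintile with the longest leaders, at a median of 293 nt, had a median occupancy of -0.39 and held 187 of the loci called lower. Members with no ATG triplet in the leader had a median of 0.22, those with 1 a median of -0.15, those with 2 one of -0.40, those with 3 one of -0.50 and those with 4 or more one of -0.69. Among leaders of 100 to 200 nt the median was 0.24 for 3053 loci with none and -0.18 for 1992 loci with at least 1. In repeat 1 these were 0.19 and -0.23, and in repeat 2 they were 0.27 and -0.14.

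**Figure D4:**
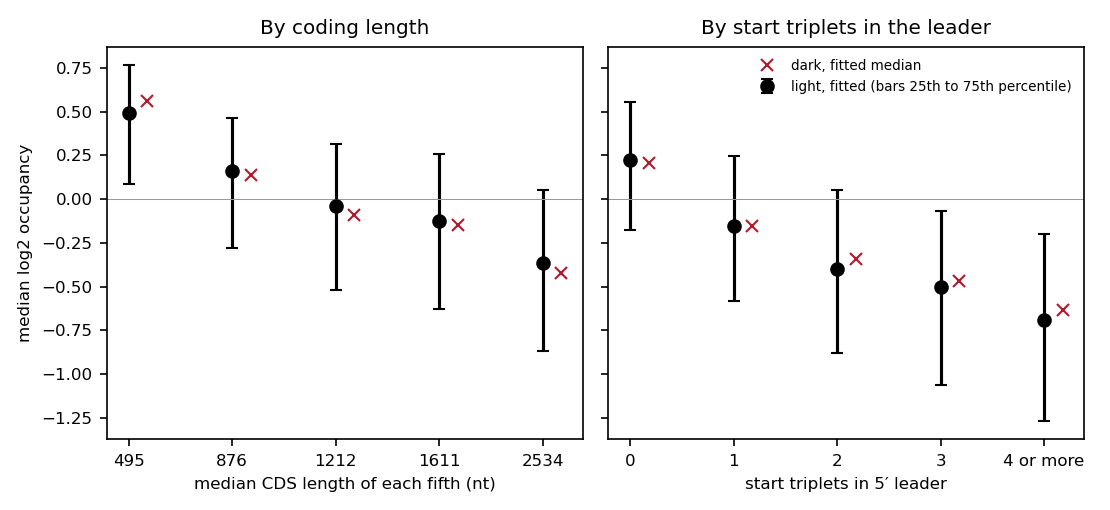
Median log2 occupancy by quintile of CDS length (left, labelled with each quintile's median length in nt) and by the number of start codon triplets in the 5′ leader (right). Black points are the fitted light medians with bars from the 25th to the 75th percentile of genes, and crosses the fitted dark medians. The light medians step down from 0.49 to -0.36 with length and from 0.22 to -0.69 with leader triplets.

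Over all members with a matched model, the bases around the main start codon shifted along the scale. An A as the third base before the start codon (ANNATG, on the mRNA's own strand, over 15563 members with a matched model) was found in 49.2% of members. It was found in 38.9% of the lowest quintile of occupancy and 60.8% of the highest. A G right after the start codon (ATGG, at the annotated start alone) was found in 58.3% of all, in 52.3% of the lowest quintile and in 63.7% of the highest. ATGGC, which contains ATGG and gives an alanine as the second amino acid, was found in 25.1% of all, in 16.7% of the lowest quintile and in 36.6% of the highest. The 1678 loci with ANNATGGC, the joint case, had a median occupancy of 0.34 (0.29 in repeat 1 and 0.36 in repeat 2), and the others one of -0.00293. The named loci at the ends differed little in the single bases. An A as the third base before the start codon stood in 6 of the 10 highest and 5 of the 8 lowest with a sequence, and ATGG in 7 and 5. ATGGC stood in 4 of the 10 and 2 of the 8, and ANNATGGC in 3 and 1, which are too few loci to compare. Of the sequences printed, those of AT3G53980, DIR1 and SCAMP4 carry ANNATGGC, the last at a locus called lower.

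Relative to the typical gene, occupancy after light was close to that in darkness. The scaling sets the typical gene near 0 in both conditions. A rise or fall shared by all genes therefore cannot be seen in these values. Fitted values in both conditions correlated across genes with Pearson's r of 0.865 and Spearman's rho of 0.870, and all 447 loci called lower and all 15 called higher lay on the same side of 0 in the dark fit. The test of the difference, light minus dark occupancy, called 0 members in edgeR (0.0% of all tested genes). Of 16357 members 228 had an unadjusted p under 0.05, a share below the 0.05 that no difference would give on average. With the block the test also called 0, with 1114 unadjusted, a share above 0.05. With 2 libraries per group, 0 calls do not show that occupancy stayed the same. DESeq2 called 9 members higher after light and 1 lower (0.0504% of all tested genes).

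Those 10 were named for that call. The lower one was EEL, a bZIP factor of seed development, whose occupancy went from -2.02 and -1.72 in the dark repeats to -4.93 and -4.74 in the light repeats (DESeq2 adjusted p = 0.017, edgeR adjusted p = 1.0). Its mRNA was 14.7 and 15.4 CPM in the dark and 9.51 and 7.53 CPM after light, and its protected reads were 3.56 and 4.64 CPM in the dark and 0.236 and 0.207 CPM after light. Among the higher were LHCB4.2, a minor antenna protein of photosystem II, from -1.28 and -0.91 to 0.76 and 0.76, and CHLM, a methyltransferase of chlorophyll synthesis, from -1.71 and -1.21 to 0.33 and 0.17. ALDH11A3, an aldehyde dehydrogenase, had nearly the same mRNA in both conditions, 401 and 364 CPM in the dark and 431 and 372 CPM after light. Its protected reads were 127 and 123 CPM in the dark and 532 and 463 CPM after light (DESeq2 adjusted p = 1.28e-05, edgeR unadjusted p = 0.0015 and adjusted p = 1.0). The others were CCD1, AGY1, SVR3, AT2G21960, AT1G15290 and AT4G31290.

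By lists, the median of light minus dark occupancy was -0.06 over all members. It was 0.72 for the Calvin cycle, with 19 of 20 above 0, 0.61 for light-harvesting proteins, with 18 of 20, and 0.34 for chlorophyll synthesis, with 21 of 25. In these lists the light and dark medians were 0.61 and -0.02, 0.66 and 0.09, and 0.51 and 0.23. For arabinogalactan proteins it was -0.40, with 0 of 33 above 0, and for Aux/IAA and SAUR proteins of the auxin response -0.34, with 5 of 49. No member of any list was called in edgeR. HEMA1 had the smallest p of the genes fixed by name, with a difference of 1.44 ± 0.44 (edgeR unadjusted p = 0.015 and edgeR adjusted p = 1.0). CAB1 had a difference of 2.31 ± 1.36.

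The loci with the largest differences at or above the median mRNA level, given as values with no call, were isocitrate lyase (ICL, 3.25), the hydrolase AT5G17670 (2.92) and LIL3:2 (2.77), a chlorophyll-binding relative, on the higher side. On the lower side stood AT2G01008 (-3.76 ± 3.78), AT1G72645 (-3.004) and AT5G03545. No fitted difference is given for AT5G03545, since it had 2 and 4 protected reads in the dark and 0 in both light libraries. AT2G01008 had 10 and 1 protected reads in the dark and 3 and 0 after light, and its light mRNA reads were 1321 and 101. AT5G17670 had 0 and 11 protected reads in the dark and 35 and 536 after light, with an SE of 1.40 for its difference. ICL, an enzyme of the glyoxylate cycle that turns seed oil into sugar, went from a fitted -2.75 in the dark to 0.51 after light. Its light repeats differed, at -1.06 and 0.97.

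The read minimum cut through a continuous range. The 385 loci with 50 to 59 reads in the lower mRNA library had a median occupancy of -0.10, with quartiles of -0.75 and 0.41. The 408 loci with 40 to 49 reads, just outside, had a median of -0.08, with quartiles of -0.92 and 0.38.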

How the data were processed

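The deposited tables give read counts per gene for the 5′ untranslated region, CDS and 3′ untranslated region, per the file headers, with 1 model per locus. These counts were not normalized by the authors. The RPKM values that the authors also deposited were used only in a check, in which the total that each RPKM implies matched the summed reads of all 3 regions in every library. The build was TAIR10 per the submitters' processing notes. The sources used here name neither an aligner nor a counting tool, and do not say how strand or multiply mapped reads were handled.

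CDS counts of 8 libraries were scaled by TMM (factors 0.824 to 1.26) and fitted, after filterByExpr, in edgeR 4.0.16 under R 4.3.3 with a mean for each of the 4 groups. The contrast was ribosome-protected minus mRNA in light, and the interaction was the same minus its dark counterpart. Tests were two-sided, adjusted over all tested genes; standard errors come from the fit. An exact permutation of 2 against 2 libraries cannot go below p = 0.333, so none was run. Values per repeat used log2 CPM with a prior count of 2 and compare protected and mRNA libraries of the same number. Libraries with the same number deviated together from the means of their groups (correlations of 0.575 to 0.806 over the group pairs). The repeat number, from the labels and column names, was therefore taken as a pairing in the values per repeat and in the fits with the block. The main fit, which gave the standard errors, did not use it. The fit was tested on simulated data. DESeq2 1.42.0 and the other alternatives are in the closing section.

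The members and the 30 lists were chosen with earlier results of these data known. Lists were matched by locus or by pattern on RefSeq's annotation of TAIR10.1, which matched 16347 members; start codon sequence was taken for 15563 whose CDS length equals the deposited one, and leader sequence, as the last bases before the start codon up to the deposited leader length of at least 20 nt, for 14635. Named were the 10 highest and 10 lowest called loci whose repeats had 1 sign and whose mRNA per kb reached the members' median, the 3 largest differences from dark each way, the extremes of each list, and 13 fixed genes. Loci at 0 protected reads leave every list's median the same when set to their bound.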

Additional observations from a re-analysis of the deposited data

How the results depend on the processing

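The counts of members called depend on how the spread is estimated. For occupancy after light, the main counts of 15 higher and 447 lower became 2662 and 3272 with the replicate block, 449 and 1131 in DESeq2, 1 and 278 with all 3 regions summed, 0 and 0 with the 4 light libraries only, and 3647 and 4078 with the 4 light libraries and the replicate block. Without a filter on low counts 6 were higher. Leaving out 1 library at a time gave 0 to 0 higher and 0 to 250 lower. RLE scaling, nuclear loci only and mRNA minimums of 20 and 200 reads kept both counts within 1.5 times. For light against dark, DESeq2 gave 9 higher and 1 lower, and each other alternative gave 0, as did each library left out. With the replicate block, 34 named genes not called in the main fit passed the threshold and none lost it. None of the called named genes changed sign under any alternative run. Medians of lists changed sign only for leucine-rich repeat kinases (0.13 with 3 regions summed, 0.07 without repeat 1 of the light mRNA, 0.02 without repeat 1 of the light protected reads), Aux/IAA and SAUR proteins (-0.04 with 3 regions summed, -0.02 without repeat 2 of the light protected reads), AP2 and ERF factors (0.10 without repeat 1 of the light mRNA) and poly(A)-binding proteins (0.08 without repeat 1 of the light protected reads, 0.03 without repeat 2 of the light mRNA). The cause of these changes was not tested. Depth limits the low end, where 179 of the 447 loci called lower had under 10 protected reads in repeat 1 and 72 in repeat 2. Called loci with 0 protected reads in repeat 1 have no bounded value without repeat 2.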

Other observations

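AT1G31835 and AT2G35750 lay above 2 in both repeats, the 2 members to do so, and were picked here after their values were seen. AT1G31835, with a CDS of 231 nt and no known function in the annotation, had 60 and 94 mRNA reads against 469 and 672 protected reads, so 5.81 and 3.11 on the log2 scale, and was not called without the block (edgeR adjusted p = 0.063) but was with it (0.0027). AT2G35750, with a CDS of 186 nt, had 57 and 236 mRNA reads against 183 and 1444 protected reads, 4.52 and 2.91 on the log2 scale (edgeR adjusted p = 0.071, with the block 0.0049). AT2G35750 is also among the 36 loci with over 50% of their protected reads in the leader. Both loci overlap another annotated locus, and both were as far above 0 in the dark fit, at 5.83 and 4.12.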
